A study of Mus musculus with 6 samples.

Results

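The conjugation genes described here encode the glutathione S-transferases (GST), the UDP-glucuronosyltransferases (UGT) and the sulfotransferases (SULT) of mouse liver. They were taken by symbol, as every row of the deposited wild-type against knockout table whose symbol starts with Gst, Ugt1, Ugt2, Ugt3 or Sult, leaving out pseudogenes and Gstcd. This gave 50 of the 16123 genes in the table, of which 20 were GST, 18 UGT and 12 SULT genes. The study compared liver RNA of mice lacking Txndc5, which encodes an endoplasmic reticulum protein of the disulfide isomerase family, with that of wild-type mice.

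Wild-type (WT) mice were labelled C57BL/6Rj and Txndc5-deficient (KO) mice C57BL/6JRj-Txndc5 em2Mdnp/Ciba, an allele made by deleting exon 3 with CRISPR in all cells and carried on from 1 male founder. All mice were males described as 2 months old, which were fed a purified AIN-93 diet for 4 weeks and then fasted for 16 h before the liver was taken. Each sample was a pool of liver RNA from 3 mice, with 3 pools per genotype. The founder was crossed to C57BL/6J mice, both genotypes came from matings of heterozygotes, and neither group was treated. The deposited table holds 1 value per gene and genotype, which combines the 3 pools, and no sample's own value. Each value is a number of reads divided by library size factors, in normalized reads, and it has no replicate error. The ratio of the 2 values was drawn toward 1 by the authors' method, so it understates the change of weakly expressed genes. For genes with few reads, the reads of each of the 6 libraries could be worked out from the values. The recovered libraries are named below by their genotype and size factor, because they carry no pool number.

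Conjugation is the second phase of detoxification, in which a polar group is attached to a drug, hormone, bile pigment or reactive lipid so that it can leave the cell. GST enzymes join reactive compounds to glutathione, UGT enzymes of the endoplasmic reticulum add glucuronic acid or another sugar from a UDP-sugar, and cytosolic SULT enzymes add sulfate from the donor PAPS. Hepatocytes hold most of this activity, and many of the genes arose by tandem duplication and still lie side by side.

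The libraries held 44040160 to 46050030 clean reads, of which 91.63% to 93.66% were mapped. Txndc5 itself was at 2697 in WT and 90.8 in KO liver, 29.7-fold lower. Of the 6 hepatocyte markers 4 lay below a log2 ratio of 0, with a median of -0.12 and a lowest value of -0.40 for Apoa1, and their summed value was 2395276 in WT and 2196664 in KO liver. The 6 erythroid markers all lay above a log2 ratio of 0, and their summed value was 118829.6 in WT and 180430.4 in KO liver. The summed value of the other marker lists was 1373 and 1419.5 for 5 Kupffer cell markers, 1870.3 and 1809.7 for 5 endothelial markers, 2064 and 1777 for 5 stellate cell markers, 279 and 307 for 6 cholangiocyte markers, 54.7 and 40.2 for 5 lymphocyte markers, 14.4 and 14.6 for 5 neutrophil markers and 112 and 122 for 5 pancreatic markers, each in WT and KO liver. The 6 pericentral hepatocyte markers summed to 241605 and 282555, and the 6 periportal ones to 247983 and 233976. Such sums mostly follow their most abundant gene. Of the stellate cell markers 2 lay above and 3 below a log2 ratio of 0, with Dcn at 1296 in WT and 915 in KO liver and Col1a1 at 85.6 and 145. Of the pericentral markers 4 lay above and 2 below 0, and Cyp2e1 alone was at 208753 in WT and 240352 in KO liver. In whole liver, fewer cells of a type and less RNA per cell cannot be told apart. The part of blood or zonal markers in the values below was not tested.

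Several members share so much sequence that reads of 100 bases cannot always be placed, and the stretches below show where. Of the 50 members, 16 had over 20% of the 100-base windows of their transcript with the longest coding sequence in common with another annotated gene (GENCODE on GRCm38), and 26 shared no window. Gstp1 and Gstp2 lie next to each other on chromosome 19, at chr19:4035407-4037985 and chr19:4040285-4046023 on the reverse strand. Shared windows made up 52.8% of the Gstp1 and 63.5% of the Gstp2 transcript. Their coding sequences of 630 bases differed at 12 positions, so that 98.1% of the bases were identical. The first 90 coding bases hold 6 of these differences, which are set in capitals.
Gstp1: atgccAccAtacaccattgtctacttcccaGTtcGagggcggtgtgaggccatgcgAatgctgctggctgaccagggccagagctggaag
Gstp2: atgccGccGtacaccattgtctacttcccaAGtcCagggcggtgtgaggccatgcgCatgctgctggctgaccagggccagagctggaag

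The Ugt1a genes are a single locus in which each gene has a first exon of its own and all share the same last exons. The longest coding sequences of the 7 members ended in the same 737 bases. The 45 bases before this shared end and its first 15 bases, in capitals, show the join in 4 members whose coding sequences are 1584 to 1605 bases long.
Ugt1a1: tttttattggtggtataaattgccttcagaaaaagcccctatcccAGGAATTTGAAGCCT
Ugt1a5: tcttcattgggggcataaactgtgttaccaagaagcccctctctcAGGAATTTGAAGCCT
Ugt1a6b: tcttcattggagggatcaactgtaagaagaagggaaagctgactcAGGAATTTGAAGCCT
Ugt1a9: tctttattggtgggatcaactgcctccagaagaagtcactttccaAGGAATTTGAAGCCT
The shared windows made up 57.2% of the Ugt1a1 transcript and 63.1% of the Ugt1a5 transcript. The annotation gives Ugt1a7c a transcript with the same coding sequence as Ugt1a6a, so the values of these genes cannot be told apart by sequence alone. Within the other subfamilies, the closest pairs were Gsta1 and Gsta2 with 97.6% and Ugt2b38 and Ugt2b5 with 97.04% of coding bases identical. The 10 pairs of Sult1 genes shared 58.9% to 63.4%, and Sult2a8 and Sult1d1 shared no window of 100 bases with any gene.

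The level of the conjugation genes was set by a few members. Per kb of transcript, Gstp1, the pi-class GST, stood first with a mean value over both genotypes of 115491, followed by Gstm1 of the mu class with 11531, Gstz1 with 8138, Gstt1 with 4739 and Gsta3 with 3721. Among UGT genes Ugt2b5 stood at 2485 and Ugt1a1 at 2397 per kb, and the highest SULT gene, Sult1a1, at 2223. Gstp1 alone held 51.8% of the summed value of all 50 members in WT and 49.2% in KO liver. At the other end, 10 members had a mean value under 10, namely 2 GST, 2 UGT and 6 SULT genes. The plot of levels sets both genotypes of each gene against each other.

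**Figure D1:**
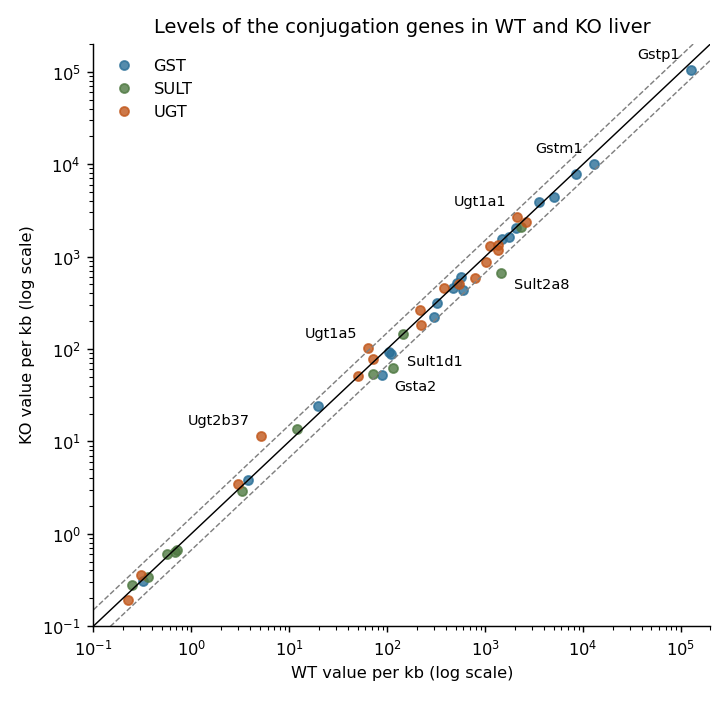
Value per kb of transcript in KO against WT liver for the 50 conjugation genes, both axes on a log scale, with 1 point per gene coloured by family. The solid line marks equal values and the dashed lines 1.5-fold differences; Gstp1 lies far above all others, and Sult2a8, Sult1d1 and Gsta2 lie below the lower dashed line while Ugt1a5 and Ugt2b37 lie above the upper one.

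Among the 40 members whose mean value reached 10, 2 were past 1.5-fold higher in KO than in WT liver, Ugt2b37 and Ugt1a5, and 3 were past 1.5-fold lower, Sult2a8, Sult1d1 and Gsta2. Over all 11367 genes with such a mean, 1.57% were past 1.5-fold higher and 5.79% lower. The median log2 ratio of KO over WT was -0.08 over the members and -0.05 over all genes, and 14 members lay above and 26 below 0, where 57.7% of all genes lay below 0. Most members differed little, 14 of the 40 by less than 1.1-fold. With 1 value per genotype there is no test of these ratios.

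The ratios are given by family. Of the 18 GST genes, 14 lay below 0, with a median log2 ratio of -0.11 and a range from -0.73 to 0.28. The 16 UGT genes had 9 above and 7 below 0, with a median of 0.07. Of the 6 SULT genes, 5 lay below 0, with a median of -0.28. The summed value of the GST genes was 145597 in WT and 123713 in KO liver, that of the UGT genes 28733 and 29427, and that of the SULT genes 7125 and 4954. Gstp1 made up 69.6% of the difference between the genotypes in the summed value of all 50 members, which was 181455 in WT and 158094 in KO liver.

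**Figure D2:**
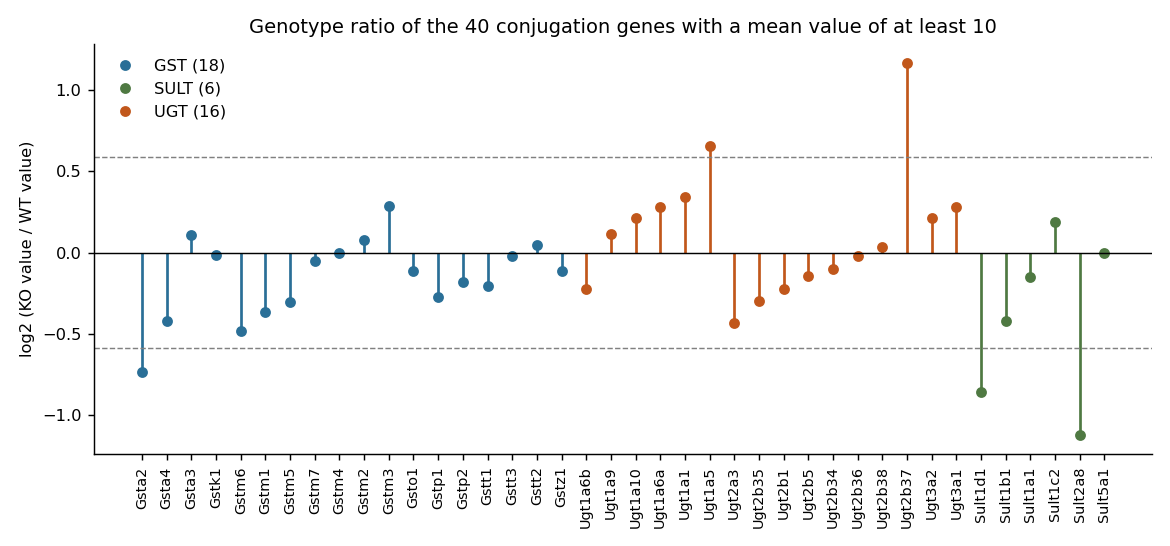
Log2 of the KO value over the WT value for the 40 conjugation genes whose mean value reached 10, ordered by family, subfamily and ratio, with 1 point per gene and dashed lines at 1.5-fold. The Ugt1a genes other than Ugt1a6b and both Ugt3a genes lie above 0, and most GST and SULT genes lie below it.

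Sult2a8 had the lowest ratio of all members. It encodes a liver sulfotransferase that sulfates bile acids, at chr7:14410686-14446769 on the reverse strand. Its value was 3098 in WT and 1425 in KO liver, 2.17-fold lower in KO, a log2 ratio of -1.12. Among the 26 members with a mean value of 500 or more it was the only member past 1.5-fold, and over all 2999 genes at that level 25 were higher and 35 lower. Its neighbours in the Sult2 family were scarcely read. Sult2a7 had 20 reads over the 6 libraries, 13 of them in the WT library of size factor 1.22, and Sult2a2 had 3 reads. Sult2b1, a cholesterol sulfotransferase, had 4 reads.

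Sult1d1, which sulfates catecholamines, was at 275 in WT and 151 in KO liver, 1.81-fold lower with a log2 ratio of -0.86. It lies at chr5:87554645-87569027, between Sult1b1 and Sult1e1. Sult1b1, which acts on thyroid hormones, was at 185 in WT and 138 in KO liver, a log2 ratio of -0.42. The oestrogen sulfotransferase Sult1e1 had 6 reads in all, 2 in KO and 4 in WT libraries. Sult1a1, the phenol sulfotransferase, was the most abundant SULT gene and stood at 3375 in WT and 3045 in KO liver, a log2 ratio of -0.15. Sult5a1 was at 169 and 168, a log2 ratio of -0.00. Sult1c2, read in every library, was at 17.6 and 20.1. Sult3a1 had 2 reads and Sult4a1, known from brain, had 5.

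Among GST genes only Gsta2 was past 1.5-fold. It encodes an alpha-class enzyme that also reduces lipid hydroperoxides, and its value was 74.9 in WT and 45.1 in KO liver, 1.66-fold lower with a log2 ratio of -0.73. The transcript shared 35.0% of its windows with other genes. Gsta4, whose enzyme clears the lipid aldehyde 4-hydroxynonenal, was at 289 in WT and 216 in KO liver, a log2 ratio of -0.42. Gsta3, the main alpha-class gene here, was at 4959 and 5348, a log2 ratio of 0.11. The summed value of the alpha class was 5326 in WT and 5612 in KO liver.

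The 7 mu-class genes lie within 149 kb on chromosome 3. Gstm1 held 85.4% of their summed value in WT and 83.0% in KO liver. It was at 17013 in WT and 13197 in KO liver, a log2 ratio of -0.37. Gstm6 had the lowest ratio of the class, -0.48, with 689 in WT and 494 in KO liver, and was the member nearest below the 1.5-fold limit. Gstm4, Gstm7 and Gstm2 stood at log2 ratios of -0.00, -0.05 and 0.08, and Gstm3 at 0.28.

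Gstp1 was at 94055 in WT and 77796 in KO liver, a log2 ratio of -0.27, and its near copy Gstp2 at 81.7 and 72.2, a log2 ratio of -0.18. Gstt1, a theta-class enzyme that acts on halogenated methanes, was at 5321 in WT and 4621 in KO liver, a log2 ratio of -0.20, while Gstt2 and Gstt3 were at 0.05 and -0.02. Gstz1, which also serves tyrosine breakdown as maleylacetoacetate isomerase, was at 14215 in WT and 13145 in KO liver, a log2 ratio of -0.11. Gsto1 of the omega class was at 2084 and 1925, and Gstk1 of mitochondria and peroxisomes at 1938 and 1914. Gsto2 had 3 reads in all, and Gsta1 had 20 reads, 9 of them in 1 KO and 8 in 1 WT library. The Gsta1 transcript shared 81.8% of its windows with other genes, so its count depends on how shared reads were assigned.

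The Ugt1a genes lie between 88055388 and 88220002 on chromosome 1, all on the forward strand. Of the 6 whose mean value reached 10, 5 were above 0, with a median log2 ratio of 0.24. Ugt1a1, the enzyme that conjugates bilirubin, made up 61.4% of their summed value in WT and 67.7% in KO liver. It was at 6827 in WT and 8650 in KO liver, a log2 ratio of 0.34, and was the member nearest below the 1.5-fold limit on the upper side. Ugt1a5 was at 207 in WT and 325 in KO liver, 1.57-fold higher with a log2 ratio of 0.65. Ugt1a9, which conjugates phenols, was at 230 and 249, a log2 ratio of 0.12.

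Ugt1a6a and Ugt1a6b pointed in opposite directions. Their coding sequences were 98.4% identical. The Ugt1a6a transcript shared 100% and the Ugt1a6b transcript 71.5% of its windows with other genes. The split of reads between them therefore depends on how shared reads were assigned, which is not known. Ugt1a6a was at 711 in WT and 862 in KO liver, a log2 ratio of 0.28, and Ugt1a6b at 3133 and 2686, a log2 ratio of -0.22. Summed, they stood at 3844 in WT and 3548 in KO liver, a log2 ratio of -0.12. The other 5 Ugt1a genes summed to 7274 in WT and 9237 in KO liver, a log2 ratio of 0.34. Over the whole locus the sum was 11118 in WT and 12785 in KO liver, a log2 ratio of 0.20. Ugt1a7c was assigned 8 reads in all, and 68.8% of its windows were shared with other genes.

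The Ugt2 genes share a stretch of 702 kb on chromosome 5 with Sult1b1, Sult1d1 and Sult1e1, 9 Ugt2 and 3 Sult1 genes in all. Of the 10 genes of this stretch whose mean value reached 10, 8 lay below 0. Ugt2a3 had the lowest ratio of the Ugt2 genes, -0.43, with 1682 in WT and 1245 in KO liver. Ugt2b35 followed with -0.30 and Ugt2b1, which acts on steroids and drugs, with -0.22. Ugt2b5, the most abundant, was at 4961 in WT and 4489 in KO liver, a log2 ratio of -0.14, Ugt2b34 was at -0.10 and Ugt2b36 at -0.02. Above 0 lay Ugt2b38, at 95.5 in WT and 97.6 in KO liver with a log2 ratio of 0.03, and Ugt2b37, at 9.66 in WT and 21.7 in KO liver, 2.25-fold higher with a log2 ratio of 1.17. Ugt2a1, an olfactory enzyme, had 4 reads, all in 1 WT library, and its transcript shared 94.9% of its windows with other genes.

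Ugt3a1 and Ugt3a2, which use sugars other than glucuronic acid, lie next to each other on chromosome 15 and are 93.2% identical in coding sequence. Ugt3a1 was at 856 in WT and 1041 in KO liver, a log2 ratio of 0.28. Ugt3a2 was at 2488 and 2883, a log2 ratio of 0.21. Neither shared a window of 100 bases with another gene.

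The reads of each library were recovered for 18 members, 8 of them with a sum of normalized reads of at least 60. In these 8 genes the KO and WT libraries overlapped without exception, while over all 4185 genes with sums of 60 to 600 the libraries of the 2 genotypes did not overlap in 5.23%. Libraries are called largest by size factor, which ran from 0.818 to 1.31, while clean reads ran only from 44040160 to 46050030. The library of size factor 1.31 in KO and that of 1.22 in WT, the largest of each genotype, stood apart together across these 4185 weakly expressed genes. Each was the highest of its 3 in 53.5% and 54.3% of these genes, and both were in 40.7%. For each of the 8 genes the values without both are therefore given as well, a comparison chosen after the data were seen.

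Ugt2b37 rested on the largest KO library. Its normalized reads were 64.01, 1.93 and 11.3 in the KO libraries of size factors 1.31, 1.04 and 0.886, and 7.35, 4.55 and 4.89 in the WT libraries of 1.22, 0.879 and 0.818. The mean was 25.7 ± 33.5 in KO and 5.6 ± 1.53 in WT liver (SD, n = 3). A single KO library was high, and a second KO library lay below every WT library. The limma fit gave a log2 difference of 1.03 with a standard error of 0.94 and an adjusted p of 0.999. Without the largest KO library the limma difference was -0.11. Without both largest libraries it was 0.07, and the log2 ratio of the means went from 2.20 to 0.49.

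Gsta2 came nearest to a separation. Its normalized reads were 34.3, 54.1 and 38.4 in KO and 44.1, 106 and 83.2 in WT libraries, in the same order of size factors. The means were 42.2 ± 10.4 and 77.7 ± 31.2 (SD, n = 3). The lowest WT library, the largest of its genotype, lay among the KO libraries and the other WT libraries lay above all of them. The limma log2 difference was -0.80 with a standard error of 0.46, an unadjusted p of 0.115 and an adjusted p of 0.999. Without both largest libraries it was -1.03, with an unadjusted p of 0.0467 and an adjusted p of 0.934 by limma over 4185 genes. In that fit 4.44% of all genes had an unadjusted p under 0.05.

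Gstm5 lay lower in KO on average, with 61.7, 84.0 and 90.3 normalized reads in KO and 72.7, 114 and 114 in WT libraries. The means were 78.7 ± 15.03 and 100.04 ± 23.7 (SD, n = 3). In both genotypes the largest library was the lowest, so that the WT library of size factor 1.22 lay below 2 of the KO libraries. The log2 ratio of the means was -0.35, and -0.38 without both largest libraries. The Gstp2 transcript shared 54.6% of its windows with the far more abundant Gstp1, so its counts depend on how shared reads were assigned. Gstp2 had 79.2, 68.6 and 66.6 in KO and 65.3, 97.8 and 84.4 in WT libraries. Here the largest WT library lay below every KO library while the other WT libraries lay above them, and the log2 ratio of the means was -0.21 with all libraries and -0.43 without both largest. Gstm3 had 20.6, 36.7 and 31.6 in KO and 18.8, 14.8 and 35.5 in WT libraries, so that 1 WT library lay within the range of the KO libraries and the other WT libraries below it. Its log2 ratio of the means was 0.36, and 0.44 without both largest libraries.

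Ugt2b38 spread widely among the KO libraries, with 160.01, 26.1 and 107 normalized reads against 84.9, 105 and 96.6 in WT libraries. Its means, 97.8 ± 67.5 in KO and 95.4 ± 9.92 in WT liver (SD, n = 3), were close although single KO libraries lay far on either side. The log2 ratio of the means was 0.04, and it turned to -0.59 without both largest libraries. The transcripts of Ugt2b38 and Ugt1a10 shared 24.2% and 57.5% of their windows with other genes, so their counts depend on how shared reads were assigned. Ugt2b38 and Ugt2b37 both had their highest value in the largest KO library and their lowest in the KO library of size factor 1.04. Ugt1a10 had 22.9, 5.79 and 6.77 in KO and 13.9, 9.10 and 4.89 in WT libraries, again with the largest library highest in both genotypes. Its log2 ratio of the means was 0.35, and -0.15 without both largest libraries. Sult1c2 had 21.3, 14.5 and 26.0 in KO and 22.05, 20.5 and 8.56 in WT libraries, and only the lowest WT library fell outside the range of the KO libraries. The log2 ratio of the means was 0.27, and 0.48 without both largest libraries.

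None of the 5 members with sums of 60 to 400 passed an adjusted p of 0.05 in the limma fit over 3325 genes, in which 0.0301% of the genes did, namely Moap1, which is no conjugation gene and is named here after its value was seen, and 1.92% had an unadjusted p under 0.05. No member had an unadjusted p under 0.05 in this fit, in which Gsta2 had the lowest. The 3 members with sums of 400 to 600, fitted over 4185 genes, had limma log2 differences of -0.33 (Gstm5), -0.30 (Ugt2b38) and -0.19 (Gstp2) with adjusted p of 0.999. In two-sided exact permutation tests over the 6 libraries, whose smallest possible p is 0.1, the 8 members gave p from 0.2 for Gsta2 to 0.9 for Ugt2b38, or 0.64 and above after Benjamini-Hochberg adjustment over the 8. For the 32 more abundant members no reads per library could be recovered, so the spread behind the ratios of Sult2a8, Sult1d1, Ugt1a5 or Gstp1 is unknown.

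**Figure D3:**
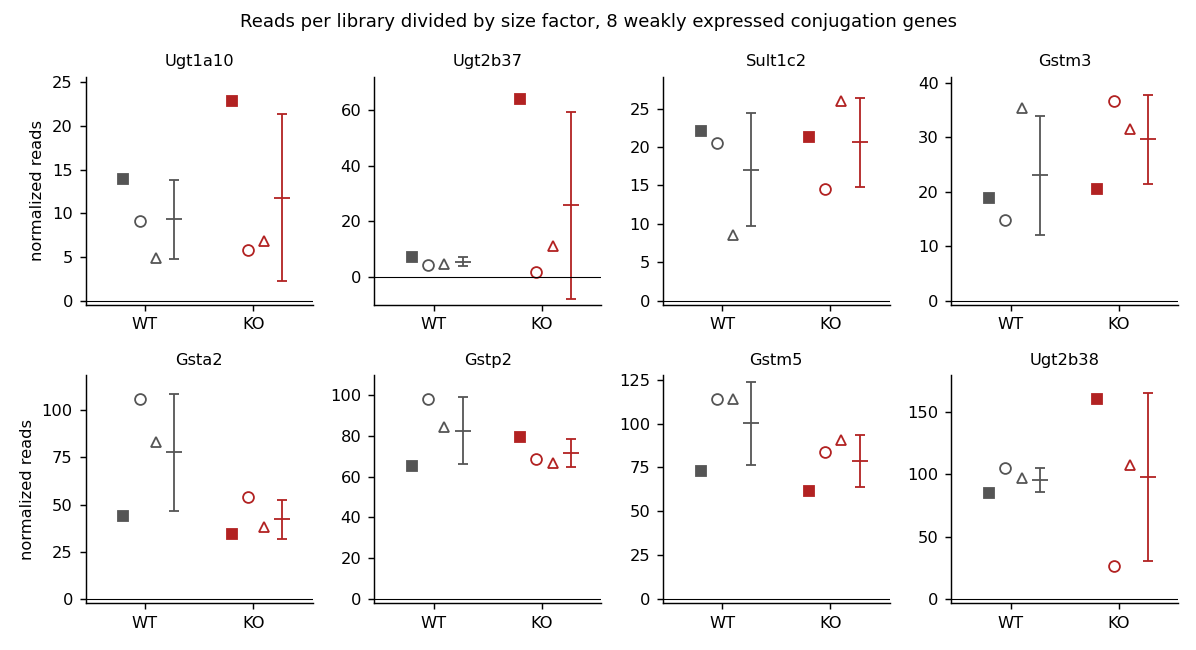
Normalized reads (reads divided by the size factor) in each of the 6 recovered libraries for the 8 conjugation genes with sums of 60 to 600, WT in grey and KO in red. Filled squares are the largest library of each genotype, circles and triangles the other libraries, and the bars beside them the mean ± SD of 3; the KO and WT points overlap in every panel, and for Ugt2b37 a single KO library at 64.01 stands far above the others.

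The promoters of the 5 members past 1.5-fold are shown because these genes differed most between the genotypes. RefSeq starts on GRCm38.p6 were given for 43 of the 50 members, 54 starts in all. The 250 bases before each start were searched on both strands for 5 motifs. TGACNNNGC is the core of the antioxidant response element, to which NRF2 binds, and GCGTG that of the xenobiotic response element, to which AHR binds. The letters TTCNNNGAA stand for STAT5 and TTGCNNAA for C/EBP. The TATA box was searched as TATAAA. Sult2a8 has 2 listed starts, of which the one at the gene's 5′ end is shown, and before the other start TATAAA lay 29 to 24 bases upstream. Capitals mark matches on either strand, and bases run 5′ to 3′ on the gene's strand. Matches that touch run together in capitals, as the TATAAA and the C/EBP letters do upstream of Sult2a8. In the windows shown, TATAAA was matched on the opposite strand, 223 to 218 bases before the start of Sult2a8 and 246 to 241 before that of Gsta2.
Sult2a8, chr7:14446588-14446837, reverse strand: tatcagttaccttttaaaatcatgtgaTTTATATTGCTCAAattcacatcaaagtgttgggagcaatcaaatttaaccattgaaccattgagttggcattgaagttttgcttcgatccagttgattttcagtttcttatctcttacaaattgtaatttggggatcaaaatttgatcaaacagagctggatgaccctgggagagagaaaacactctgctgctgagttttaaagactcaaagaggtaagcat
Sult1d1, chr5:87569007-87569256, reverse strand: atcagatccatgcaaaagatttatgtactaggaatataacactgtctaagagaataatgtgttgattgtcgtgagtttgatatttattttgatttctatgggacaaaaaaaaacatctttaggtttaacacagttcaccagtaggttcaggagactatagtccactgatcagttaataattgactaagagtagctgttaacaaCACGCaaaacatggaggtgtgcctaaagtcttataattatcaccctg
Gsta2, chr9:78347146-78347395, reverse strand: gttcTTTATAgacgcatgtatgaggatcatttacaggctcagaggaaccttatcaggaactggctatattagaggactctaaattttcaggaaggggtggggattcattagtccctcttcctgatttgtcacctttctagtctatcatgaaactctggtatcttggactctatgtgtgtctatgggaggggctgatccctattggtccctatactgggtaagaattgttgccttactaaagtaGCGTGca
Ugt1a5, chr1:88165762-88166011, forward strand: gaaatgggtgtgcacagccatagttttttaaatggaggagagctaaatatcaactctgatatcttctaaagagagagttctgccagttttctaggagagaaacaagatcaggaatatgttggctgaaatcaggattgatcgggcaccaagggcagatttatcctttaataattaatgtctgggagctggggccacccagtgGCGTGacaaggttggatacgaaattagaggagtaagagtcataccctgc
Ugt2b37, chr5:87254789-87255038, reverse strand: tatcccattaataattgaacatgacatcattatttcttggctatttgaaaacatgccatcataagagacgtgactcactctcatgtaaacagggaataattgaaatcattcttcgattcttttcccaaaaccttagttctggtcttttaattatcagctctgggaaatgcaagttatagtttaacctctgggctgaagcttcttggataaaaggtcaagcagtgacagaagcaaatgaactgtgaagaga
No motif was shared by all 5. Sult1d1, Gsta2 and Ugt1a5 each hold the AHR core, and none of these letters occur in the Ugt2b37 window.

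The antioxidant response element core lay before 3 GST genes, Gsta3, Gstm5 and Gstm7, or 5.56% of the member starts against 10.2% of all starts. The AHR core lay before 16.7% of member starts and 28.2% of all starts, the TATA box before 12.96% and 12.4%, the C/EBP letters before 11.1% and 9.56%, and the STAT5 letters before 7.41% and 7.02%. These are shares of letters, and no test was made of them.

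Genes that feed, share or regulate the pathway were taken as lists, and counted as the members were, against the 1.57% of all genes that were past 1.5-fold higher and the 5.79% lower. Of 16 cofactor genes, which make or carry glutathione, UDP-glucuronic acid and PAPS, none was past 1.5-fold and the median log2 ratio was -0.01. Gclc and Gclm, the subunits of the enzyme that starts glutathione synthesis, had the highest ratios of 0.40 and 0.30, and Ugp2 and Cth the lowest of -0.36 and -0.33. Papss2, the main PAPS synthase of liver, was at 1289 in WT and 1438 in KO liver. Of 14 other conjugating enzymes 1 was lower, the histamine methyltransferase Hnmt at 48.9 in WT and 28.0 in KO liver. Tpmt lay next at -0.35, and Acsm5 highest at 0.20. Among 6 membrane GST genes and relatives, Ugcg, the ceramide glucosyltransferase, was lower at -0.59. Mgst1, the abundant membrane GST, was at 33099 in WT and 38105 in KO liver, a log2 ratio of 0.20, while Mgst3 was at -0.01 and Gstcd at 0.36.

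The genes listed as exporters of conjugates lay mostly above 0, 8 of 9 with a median log2 ratio of 0.15. None was past 1.5-fold, and 42.3% of all genes lay above 0. Abcb1a and Abcc1 were highest at 0.50 and 0.46, and Abcc2, which carries conjugates into bile, was at 2729 in WT and 3315 in KO liver. Rdx and Pdzk1, which are in this list but are not transporters themselves, were lowest at -0.18 and 0.05. Of 10 genes listed for splitting conjugates or processing glutathione conjugates none was past 1.5-fold. Sumf1, which encodes an activator of sulfatases, and Arsb were highest at 0.36 and 0.29, and Dpep1 and Sts lowest at -0.34 and -0.33. Of 7 phase I partners none was past it either, from Fmo5 at 0.29 and Por at 0.11 to Ephx1 at -0.02 and Ephx2 at 0.03.

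Of 25 regulators of conjugation genes 1 was past 1.5-fold higher and 1 lower. Maff, a small MAF protein that can pair with NRF2, was at 50.2 in WT and 107 in KO liver, and Cux2, a factor of sex-biased liver genes, at 47.8 and 25.1. Ppara lay next highest at 0.48 and Foxa3 next lowest at -0.37. Nfe2l2, which encodes NRF2, was at 436 in WT and 435 in KO liver, and Ahr at 132 and 119. None of 20 further NRF2 target genes was past 1.5-fold, and their median was -0.01. Gclc and Gclm were again the highest, and Akr1b3 and Cbr1 the lowest at -0.28 and -0.21. Of the AHR target genes, 3 reached a mean value of 10, with Cyp1a2 at -0.01, Nqo1 at -0.13 and Tiparp at -0.33. By limma, none of the recovered genes in these lists passed an adjusted p of 0.05 or an unadjusted one. The fit held only 0 to 3 genes of each list, so most genes of these lists were not tested. It held 0 of the phase I partners, 1 of the regulators and 3 of the exporters. Over all genes of the fit, 0.0301% passed the adjusted and 1.92% the unadjusted limit.

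**Figure D4:**
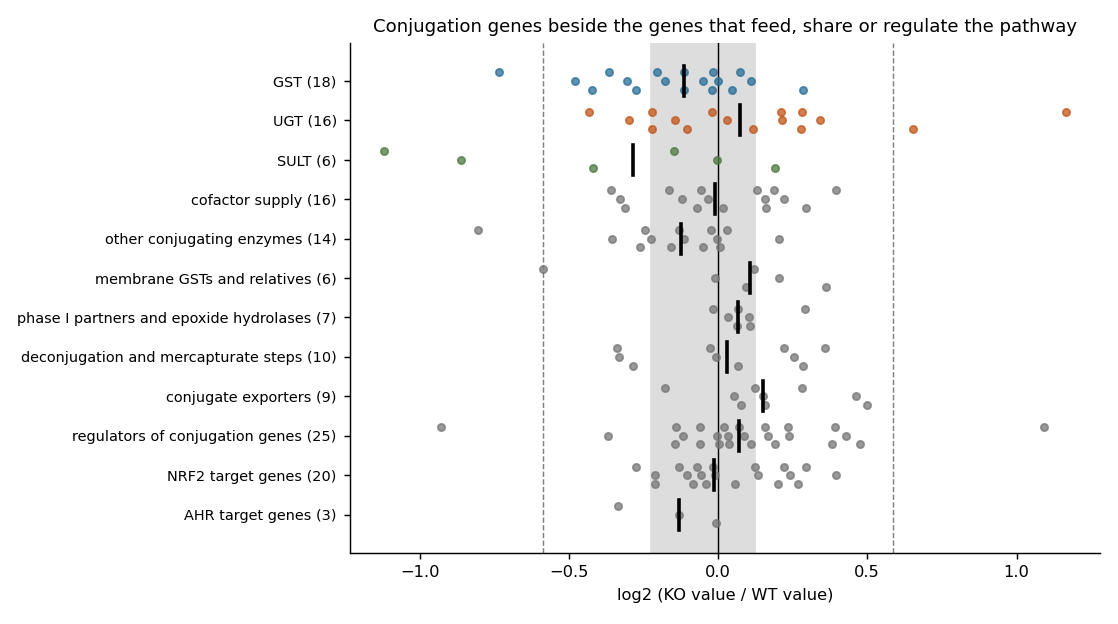
Log2 of the KO value over the WT value for the GST, UGT and SULT genes and for 9 lists of related genes, with 1 point per gene whose mean value reached 10, the number of genes in parentheses and a bar at the median. The grey band spans the middle 50% of all genes and the dashed lines mark 1.5-fold. SULT genes have the lowest median at -0.28 and the exporter list, which includes Rdx and Pdzk1, the highest at 0.15.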

How the data were processed

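Liver RNA of 3 WT and 3 KO pools was sequenced by BGI. The submitters' processing notes name HISAT2, StringTie, Cufflinks, GATK, Bowtie2, RSEM and mm10, with no role. The deposited signal is, per gene and genotype, the reads divided by DESeq2 size factors and combined over 3 libraries by the authors. The table also holds their fold changes and p-values, which were not used. From it, log2 ratios were computed without a pseudocount for genes with a mean of at least 10. A gene was counted past 1.5-fold in either direction. Filter and mapping summaries gave deposited counts of raw and clean reads, the percent of ribosomal RNA and the percent of reads mapped, in all and uniquely.

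The mean of both values is the mean over 6 libraries, and single reads have 6 distinct worths (shared by at least 20 genes each), so whole reads per library were solved from the sum. This recovered 8063 of 8081 genes (99.8%) with sums up to 400. With the ratio as a window, which was chosen after seeing the table, 860 of 979 (87.8%) between 400 and 600 were recovered. In simulated data all 694 genes recovered above 400 were right. limma 3.58.1 in R 4.3.3 was run on log2(normalized reads + 1) with Benjamini-Hochberg adjustment over 3325 genes. In simulated data it called 199 of 200 genes changed by 2 on the log2 scale and 10 unchanged ones. The simulated libraries had the same dispersion for every gene and no shift shared between libraries. The largest recovered libraries of both genotypes did stand apart together, so these counts do not give the share of changes found in the real data.

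Each pool combined 3 mice, and p-values measure the spread between pools. Counting precision falls with few reads; for abundant genes the error between pools is unknown. Named genes were, in each subfamily, the gene with the highest mean, the 8 highest and 8 lowest ratios, all with sums of at least 60, those next to 1.5-fold, and the 2 highest and 2 lowest of each related list; others are named to account for every gene, and 1 gene this rule names is not reported here. Members and lists were chosen with earlier results of these data known. Alternatives were another fold, pseudocount, centring, filter, scaling, variance trend, a term for the largest library and leaving out libraries.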

Additional observations from a re-analysis of the deposited data

How the results depend on the processing

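No paired analysis was possible because the WT and KO pools share only 1 pool number and the recovered libraries carry none. At a 2-fold limit 1 member was higher (Ugt2b37) and 1 lower (Sult2a8), where 0.158% of all genes were higher and 0.739% lower. At a limit of 0.32 on the log2 scale 3 were higher and 8 lower, where 8.27% and 16.4% of all genes were. In 280 alternative values over 51 results, 263 were counted as the same, 12 as turned in direction and 5 as moved further. Same meant close to the main value or on the same side of the threshold. A ratio of the deposited values not past 1.5-fold was counted as the same if it moved by less than 0.1, even where its sign turned. Centring moved Gstk1 from -0.018 to 0.030, for instance. No member passed the limma threshold of an adjusted p of 0.05 under any alternative run. Unadjusted limma p fell under 0.05 in some fits, given here with the share of all fitted genes under 0.05. For Gsta2 the limma p was 0.0412 (7.57% of genes) with the term for the largest library over 4185 genes. It was 0.0467 (4.44%) without both largest libraries and 0.0278 (3.64%) without the WT library of size factor 1.22. For Ugt2b37 the limma p was 0.0206 (0.782%) without the KO library of 1.04.

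Leaving out 1 library at a time, the limma log2 difference ran from -0.11 to 2.12 for Ugt2b37, from -0.40 to 0.50 for Ugt1a10, from -0.080 to 0.55 for Sult1c2 and from -0.83 to 0.46 for Ugt2b38. The log2 ratio of mean normalized reads ran from -0.56 to 0.76 for Ugt1a10, from -0.046 to 0.50 for Sult1c2, from -0.52 to 0.49 for Ugt2b38 and from 0.24 to 2.75 for Ugt2b37. The lowest value was without the largest KO library for Ugt1a10, Ugt2b37 and Ugt2b38, and without the WT library of size factor 0.818 for Sult1c2. Without both largest libraries, an alternative chosen after seeing the data, the ratio was -0.15 for Ugt1a10 and -0.59 for Ugt2b38. The cause was not tested. Centring on the median of all genes moved each ratio by 0.05 and changed the sign of no family's median. For 4 members the direction was the same in each of these fits, but the limma difference ran from -1.16 to -0.54 for Gsta2, from -0.54 to -0.17 for Gstm5, from -0.35 to -0.058 for Gstp2 and from 0.15 to 0.75 for Gstm3. With a term for the largest library, the limma adjusted p of Gsta2 was 0.673. With few reads per library and 3 libraries per genotype, small differences were not detectable, and for abundant members no spread could be measured.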
